A study of Mus musculus with 18 samples.

Results

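The transcripts described here encode 10 amino acid transporters, chosen by name from 16545 genes measured by RNA-seq in mouse splenic B cells, and all 10 were found in the table by their NCBI gene ID. They are the CD98 heavy chain *Slc3a2*, 4 light chains known to pair with it (*Slc7a5*, *Slc7a6*, *Slc7a7* and *Slc7a11*), the cationic amino acid carrier *Slc7a1*, the neutral amino acid exchangers *Slc1a4* and *Slc1a5*, and the sodium-coupled carriers *Slc38a1* and *Slc38a2*.

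Purified splenic B cells were compared between control (CON) mice and mice in which *Zbtb24*, a zinc finger transcription factor gene, was deleted in B cells (B-CKO). RNA was taken on days 0, 1 and 2 of culture with LPS, the bacterial endotoxin that TLR4 senses and that drives B cells to divide, with 3 libraries per genotype and day and 18 libraries in all. B-CKO mice carry *Zbtb24* loxp/loxp with a Cre that is active in B cells, and by the methods of the study the controls are Cre-carrying littermates with an intact *Zbtb24*, both on a C57BL/6 background. The labels say only CON for the controls and give no ages. Only exon 2 of *Zbtb24*, with its translation start, is removed. Transcript of the other exons can therefore remain.

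*Zbtb24* itself was at 49.6, 49.6 and 37.1 FPKM in CON and at 14.3, 10.5 and 12.6 FPKM in B-CKO on day 0. It was at 18.3, 18.8 and 15.7 FPKM against 11.7, 10.4 and 10.6 FPKM on day 1, and at 13.4, 17.1 and 14.9 FPKM against 10.6, 9.23 and 11.3 FPKM on day 2, so the genotypes did not overlap on any day. The summed B cell markers were at 2089 to 5475 FPKM per library, against at most 13.5 FPKM for T cell markers, 14.5 FPKM for myeloid markers and 71.1 FPKM for erythroid markers. The highest of the last 3 sums were found on day 0. NK cell markers summed to at most 3.13 FPKM. Sums whose groups did not overlap between successive days or between genotypes are described beside those comparisons. Replicates correlated at r = 0.986 to 0.999 on log2(FPKM + 1). FPKM normalizes a gene's fragments for the length of its transcript and for library size. The table gives FPKM alone, and absolute depth is unknown. From the whole-fragment steps of 21 low genes, the relative depth was 0.881 to 0.914 on day 0 and 1.01 to 1.07 on days 1 and 2. On day 0 the libraries numbered 1 of both genotypes stood apart, and their values are given beside the results they touch.

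Amino acids enter lymphocytes mainly through solute carriers. CD98 is a heterodimer of *Slc3a2*, a single-pass glycoprotein that brings the complex to the cell surface, and a light chain that carries the amino acid. With *Slc7a5* (LAT1) it exchanges glutamine for leucine and other large neutral amino acids, which feed mTORC1 signalling and protein synthesis when B cells begin to grow. Several of these genes are known targets of ATF4, the transcription factor of the amino acid response, which binds with C/EBP proteins at a composite element.

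To show what sequence lies at the starts of these genes, RefSeq windows on GRCm38.p6 of 250 bases before to 50 bases after a transcription start were searched. Windows were found for 7 members in 13 windows, and *Slc7a5*, *Slc1a5* and *Slc38a1* had none in the table used. The upstream sequences of *Slc3a2*, the shared heavy chain, and of *Slc38a2*, the member that fell most, are printed in full, both from the minus strand (chr19:8713898-8714147 and chr15:96699729-96699978). Neither held a match to the motifs searched, and they therefore have no capitals. The *Slc3a2* sequence lies before a start inside the gene's listed span (chr19:8706882-8723369), and the outer end of that span had no window. The same holds for the windows of *Slc7a6*, *Slc7a7* and *Slc7a11*.

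Slc3a2: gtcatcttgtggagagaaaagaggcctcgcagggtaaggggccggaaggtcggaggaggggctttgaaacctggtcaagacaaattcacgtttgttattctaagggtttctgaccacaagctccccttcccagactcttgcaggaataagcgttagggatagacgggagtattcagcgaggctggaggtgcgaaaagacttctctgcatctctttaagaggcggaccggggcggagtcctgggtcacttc

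Slc38a2: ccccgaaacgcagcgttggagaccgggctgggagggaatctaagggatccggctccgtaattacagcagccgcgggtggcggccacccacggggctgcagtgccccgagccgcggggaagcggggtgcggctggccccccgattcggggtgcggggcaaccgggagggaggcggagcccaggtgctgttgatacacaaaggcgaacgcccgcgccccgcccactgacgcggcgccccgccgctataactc

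The letters TGATGNAA, the core of the ATF4 and C/EBP composite element, were searched on both strands and were found for 3 of the 7 members, *Slc1a4*, *Slc7a7* and *Slc7a11*, and for 4.51% of all 27025 genes with a window. By window these are 4 of 13 for the members and 3.97% of all 32851. The E-box CACGTG, which reads the same on both strands, was found for 0 of the 7 members and for 8.09% of all genes with a window. The 30-base stretches around matches are printed from the minus strand with the motif in capitals, because their genes behaved differently from each other. They begin 11 bases before the motif and lie at chr11:20332699-20332728 for *Slc1a4*, at chr14:54417927-54417956 for *Slc7a7* and at chr3:50443661-50443690 for *Slc7a11*. A second *Slc7a7* match and a second *Slc7a11* match lay within the same windows.

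Slc1a4: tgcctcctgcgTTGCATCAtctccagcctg

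Slc7a7: gacctagaagcTGATGCAAcagcttccccg

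Slc7a11: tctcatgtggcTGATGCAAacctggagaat

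A match is a description of the letters and was not tested as a binding site. Among these genes *Slc1a4* rose with LPS, *Slc7a7* did not rise from day 0 to day 1 and *Slc7a11* stayed under 0.1 FPKM in every library, as described below.

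On day 0, in cells before culture with LPS, the members covered a wide range of levels. *Slc1a5* (ASCT2, a glutamine and neutral amino acid exchanger) was the highest, at 136.8 ± 24.7 FPKM in CON and 141.6 ± 22.7 FPKM in B-CKO (SD, n = 3). *Slc3a2* followed in CON at 105.3 ± 25.6 FPKM, and in B-CKO it was at 92.1 ± 22.2 FPKM. *Slc38a2* (SNAT2, a glutamine and alanine carrier induced when amino acids are scarce) was at 98.9 ± 21.8 FPKM in CON and 107.5 ± 26.4 FPKM in B-CKO. These 3 neighbours in the order overlapped with each other in their libraries. *Slc38a1* (SNAT1, a related glutamine carrier) was at 38.9 ± 10.01 FPKM in CON and 39.4 ± 5.75 FPKM in B-CKO. *Slc7a1* (CAT1, which takes up arginine and lysine), *Slc7a5* and *Slc7a6* (y+LAT2, which exchanges cationic for neutral amino acids) lay together at 18.8 ± 5.10, 16.6 ± 5.60 and 12.1 ± 0.696 FPKM in CON, with overlapping libraries between neighbours. *Slc7a7* (y+LAT1) was at 5.66 ± 0.717 FPKM and *Slc1a4* (ASCT1, a serine and neutral amino acid exchanger) at 0.297 ± 0.108 FPKM in CON. *Slc7a11* (xCT, the cystine and glutamate exchanger) was at 0.02 to 0.03 FPKM in the CON libraries and was listed at 0 in 2 of the 3 B-CKO libraries.

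The order of levels changed with LPS. On day 1 in CON it ran from *Slc1a5* (113.5 FPKM) over *Slc7a5* (83.6), *Slc3a2* (76.5), *Slc38a2* (41.1), *Slc38a1* (34.2), *Slc7a1* (25.1), *Slc7a6* (19.9), *Slc7a7* (5.21) and *Slc1a4* (2.58) to *Slc7a11*, as mean FPKM, and no neighbours in it overlapped in their libraries. On day 2 in CON, *Slc3a2* (66.3 FPKM) and *Slc7a5* (65.0 FPKM) overlapped, and in B-CKO, *Slc3a2* lay above *Slc7a5* in every library.

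**Figure D1:**
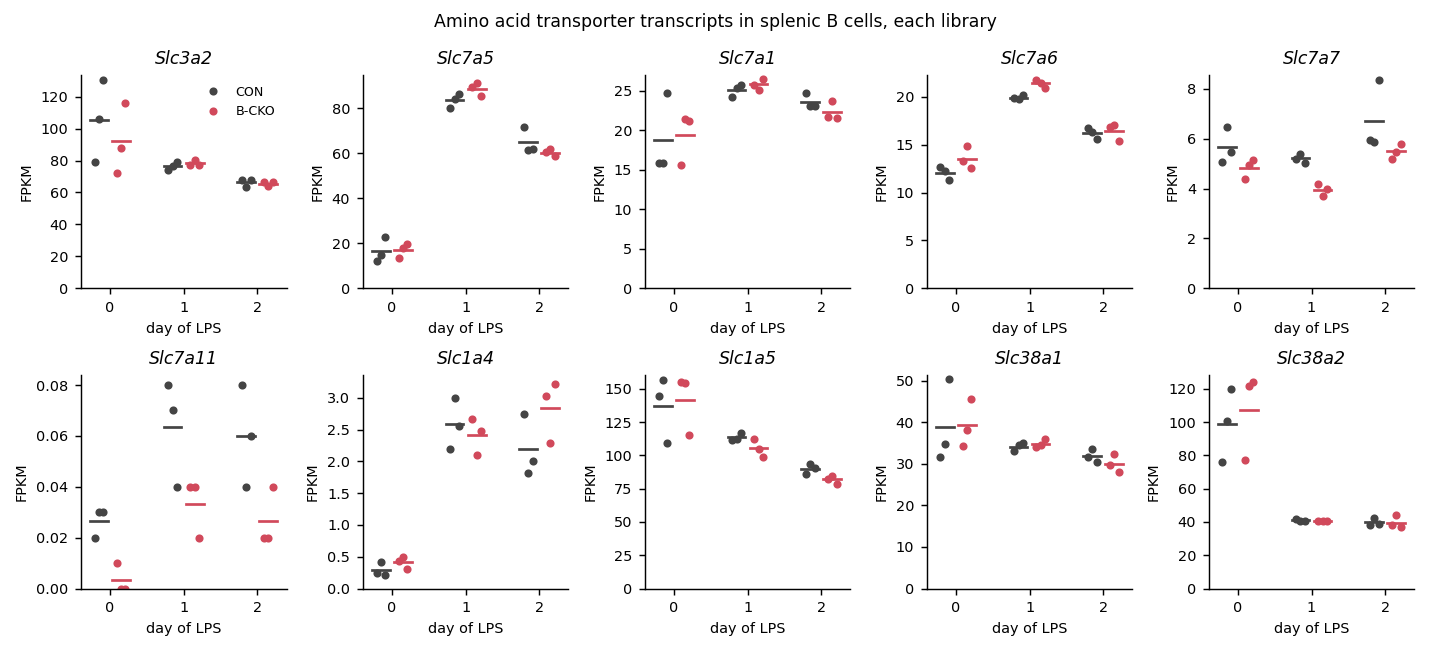
FPKM (vertical axis, linear, from 0, scaled per gene) of the 10 amino acid transporters on days 0, 1 and 2 of LPS. Points are single libraries, lines are means of 3 libraries, and colours are CON (grey) and B-CKO (red). Slc7a5 and Slc1a4 are higher on days 1 and 2 than on day 0 and Slc38a2 is lower, in both genotypes, while the 2 colours lie close together for most genes.

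The first comparison asks how the transporters changed in CON cells from day 0 to day 1 of LPS. *Slc7a5*, *Slc7a6* and *Slc1a4* rose and *Slc38a2* fell, so that 4 of the 10 members passed the test (limma, adjusted p under 0.05 over all 15531 genes tested). Of all genes tested, 57.4% passed it, 26.7% higher and 30.7% lower, and the members' share was not tested against this. With genes of at least 1 FPKM only, and with values rescaled to TPM, 6 members passed. In a single fit of all 18 libraries 7 members did. The median log2 fold change of the members was -0.022, as was that of all genes tested. Marker sums moved between the same groups. From day 0 to day 1 in CON, B cell markers went from 4325 to 5475 FPKM down to 2398 to 2583 FPKM. The plasmablast sum went from 132.9 to 157.7 FPKM down to 72.2 to 90.6 FPKM, but its genes moved in both directions. *Jchain* fell from 76.1 to 108.1 FPKM down to 14.6 to 22.2 FPKM, and *Sdc1* fell too. *Prdm1* rose from 1.55 to 3.79 FPKM up to 5.35 to 8.02 FPKM, and *Xbp1* rose too. T cell markers were at 6.55 to 13.5 FPKM on day 0 and 1.11 to 1.71 FPKM on day 1, and NK cell markers at 2.25 to 3.13 FPKM and 0.02 to 0.19 FPKM. Myeloid markers were at 6.12 to 12.6 FPKM and 3.81 to 5.18 FPKM, although *Itgam* rose. Erythroid markers were at 15.04 to 37.6 FPKM and 8.23 to 11.4 FPKM, although *Hbb-bt* rose. The dendritic cell sum was higher on day 1, at 6.96 to 7.57 FPKM against 1.99 to 3.64 FPKM, through *Flt3* alone (6.39 to 6.77 FPKM against 0.94 to 1.90 FPKM). The means of *Siglech*, *Clec9a*, *Xcr1* and *Zbtb46* were lower on day 1. In B-CKO the sums moved in the same directions, with overlapping groups for erythroid markers. Their part in the changes of the transporters was not tested.

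*Slc7a5*, the main CD98 light chain, was at 12.1, 14.9 and 22.9 FPKM in CON on day 0 and at 80.1, 84.3 and 86.4 FPKM on day 1. All day 1 libraries lay far above all day 0 libraries. The ratio of means was 5.03, and the log2 fold change was 2.31 ± 0.21 (SE, adjusted p = 0.000185). B-CKO cells showed 13.6, 17.95 and 19.9 FPKM on day 0 and 89.4, 91.1 and 85.5 FPKM on day 1, a log2 fold change of 2.32 ± 0.13 (adjusted p = 1.85e-05). *Slc7a5* moved from the 73.1st to the 93.8th percentile of all genes in CON.

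Its partner *Slc3a2* did not rise with it. *Slc3a2* was at 79.3, 105.9 and 130.5 FPKM in CON on day 0 and at 73.9, 76.5 and 79.0 FPKM on day 1. The day 1 libraries were all below the day 0 libraries, the nearest by a narrow margin. The log2 fold change was -0.43 ± 0.17 (SE) and missed the threshold (adjusted p = 0.0767). The call was reached with genes of at least 1 FPKM only (adjusted p = 0.0493), with values rescaled to TPM (a log2 fold change of -0.60, adjusted p = 0.0279), with the replicate number as a block (adjusted p = 0.05 as rounded), with a single fit of all 18 libraries (adjusted p = 0.025) and without CON day 0 replicate 1 (-0.61, adjusted p = 0.00375). It was not reached without any 1 of the other 5 libraries (adjusted p = 0.141 to 0.179), and without CON day 0 replicate 3 the log2 fold change was -0.26. In B-CKO, *Slc3a2* was at 72.5, 87.6 and 116.1 FPKM on day 0 and at 77.4, 80.3 and 77.1 FPKM on day 1, with overlapping groups (log2 fold change -0.21 ± 0.16, adjusted p = 0.323). Without B-CKO day 0 replicate 1 it was -0.36 (adjusted p = 0.049), and without replicate 3 of that day -0.026 (adjusted p = 0.808).

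The ratio of the CD98 transcripts to each other therefore changed. The *Slc3a2* to *Slc7a5* ratio of FPKM was 5.70 to 7.12 in CON and 4.88 to 5.85 in B-CKO on day 0. It was 0.907 to 0.923 and 0.866 to 0.902 on day 1, and 0.949 to 1.09 and 1.04 to 1.13 on day 2. All day 0 libraries lay above all later libraries, and in both genotypes all day 2 libraries lay above those of day 1. Summed over 6 light chains of *Slc3a2*, light chain transcript rose from 34.4 ± 4.96 FPKM to 108.9 ± 3.23 FPKM in CON, and *Slc7a5* made up 47.4% ± 9.04 of it on day 0 and 76.8% ± 0.679 on day 1. These ratios are of transcripts, and protein was not analysed here.

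**Figure D2:**
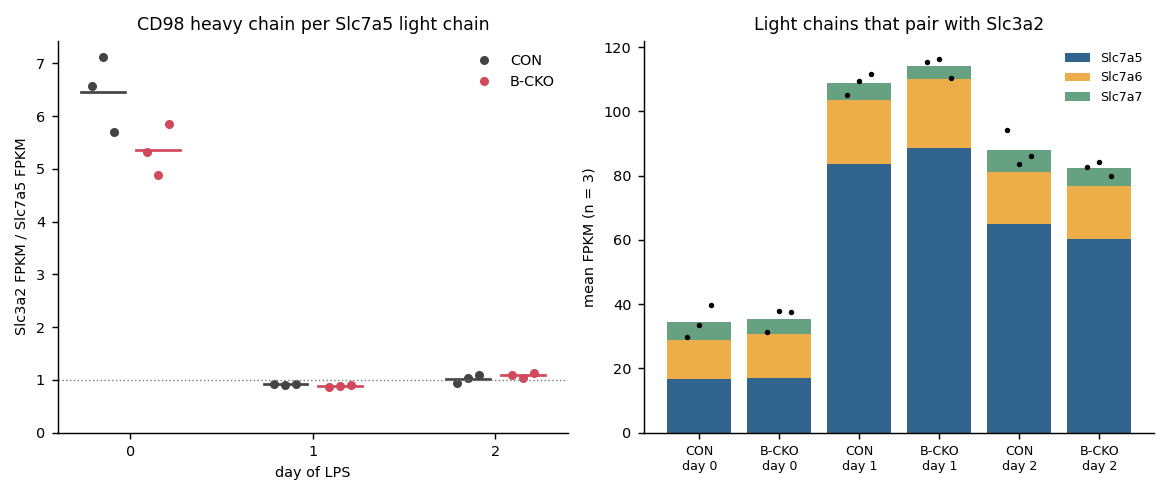
Left, ratio of Slc3a2 to Slc7a5 FPKM in each library (points) with the mean of 3 libraries (lines), and a dotted line at 1. Right, stacked mean FPKM of the light chains Slc7a5, Slc7a6 and Slc7a7 by genotype and day, with black points for the sum in each library. The ratio falls from 4.88 to 7.12 on day 0 to 0.866 to 1.13 on days 1 and 2, and Slc7a5 takes the larger part of the bars after day 0.

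The second light chain, *Slc7a6*, rose from 12.1 ± 0.696 to 19.9 ± 0.217 FPKM in CON (SD, n = 3; log2 fold change 0.68 ± 0.068, adjusted p = 0.000255) and from 13.5 ± 1.18 to 21.4 ± 0.415 FPKM in B-CKO (0.63 ± 0.076, adjusted p = 0.000482). The groups did not overlap in either genotype. *Slc7a7* did not pass the test in either genotype, with means of 5.66 and 5.21 FPKM in CON on days 0 and 1 and of 4.83 and 3.96 FPKM in B-CKO. In B-CKO its day 1 libraries were all below those of day 0 (log2 fold change -0.232, adjusted p = 0.0808). There 3 of 12 alternatives gave a limma call, with adjusted p down to 0.0171. *Slc7a11* was at 0.02 to 0.08 FPKM in CON and at most 0.04 FPKM in B-CKO on every day, too low for a reading of its changes.

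*Slc1a4* had the largest ratio among the members above 0.1 FPKM. It was at 0.25, 0.42 and 0.22 FPKM in CON on day 0 and at 2.19, 3.00 and 2.55 FPKM on day 1. In B-CKO it was at 0.43, 0.49 and 0.31 FPKM and then at 2.66, 2.10 and 2.48 FPKM. All day 1 libraries were above all day 0 libraries. The ratio of means was 8.70 in CON and 5.89 in B-CKO, and the log2 fold changes of FPKM + 1, which understate a change from so low a level, were 1.46 ± 0.11 (adjusted p = 7.39e-05) and 1.27 ± 0.090 (adjusted p = 4.49e-05). With a pseudocount of 0.1 the log2 fold changes were 2.78 and 2.31.

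*Slc38a2* fell. It was at 76.2, 100.8 and 119.7 FPKM in CON on day 0 and at 41.7, 40.8 and 40.8 FPKM on day 1, and at 77.1, 121.5 and 124.0 FPKM and then 40.6, 40.7 and 40.6 FPKM in B-CKO. The spread of day 0 was gone on day 1, when all 6 libraries lay between 40.6 and 41.7 FPKM. The log2 fold change was -1.22 ± 0.16 in CON (adjusted p = 0.000787) and -1.35 ± 0.18 in B-CKO (adjusted p = 0.000804). Its relative *Slc38a1* was at 38.9 ± 10.01 and 34.2 ± 0.993 FPKM in CON and missed the threshold in both genotypes, so that the ratio of *Slc38a2* to *Slc38a1* went from 2.56 ± 0.285 to 1.204 ± 0.051 in CON.

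The carriers *Slc7a1* and *Slc1a5* passed the test in B-CKO and missed it in CON, and the difference between the genotypes was not past its own test (below). *Slc7a1* rose from 19.4 ± 3.29 to 25.8 ± 0.695 FPKM in B-CKO (log2 fold change 0.41 ± 0.12, adjusted p = 0.0284), and in CON it was at 18.8 ± 5.10 and 25.1 ± 0.745 FPKM (0.43 ± 0.17, adjusted p = 0.0766). *Slc1a5* fell from 141.6 ± 22.7 to 105.3 ± 7.06 FPKM in B-CKO (-0.41 ± 0.13, adjusted p = 0.0292), and in CON it was at 136.8 ± 24.7 and 113.5 ± 3.16 FPKM (-0.25 ± 0.13, adjusted p = 0.159). Both calls were fragile. The *Slc1a5* call in B-CKO was lost without any 1 of 5 libraries (all but day 0 replicate 3), with adjusted p up to 0.0987. The *Slc7a1* call was lost under TPM and without any 1 of the day 1 B-CKO libraries, with adjusted p up to 0.142. In CON, leaving out day 0 replicate 3 gave adjusted p = 0.000304 for *Slc7a1* and 0.00164 for *Slc1a5*. Over all cases with 1 library left out, the CON log2 fold change of *Slc1a5* ran from -0.405 to -0.147. B-CKO thus had 6 of 10 members past the test, 4 higher and 2 lower, where 59.8% of all genes passed it, 27.5% higher and 32.3% lower.

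**Figure D3:**
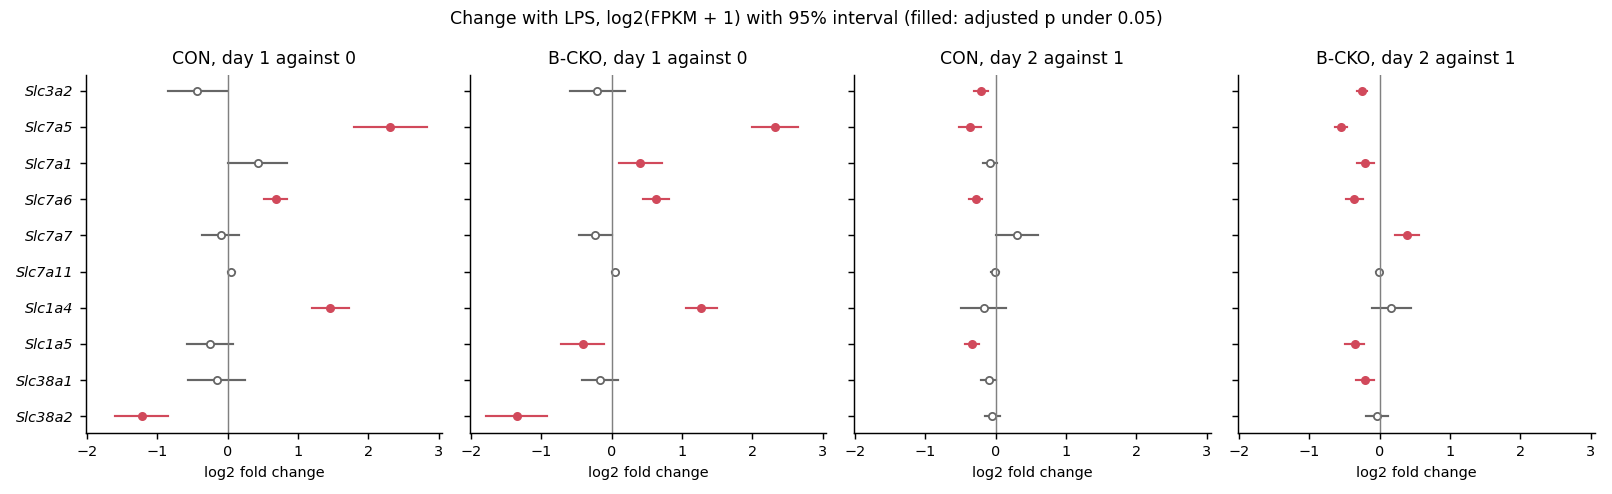
Log2 fold change of FPKM + 1 (horizontal axis) with 95% interval for each transporter, from day 0 to day 1 and from day 1 to day 2, in CON and B-CKO (3 libraries per group). Filled red points have an adjusted p under 0.05. From day 0 to day 1 Slc7a5 and Slc1a4 lie far to the right and Slc38a2 to the left in both genotypes, and changes from day 1 to day 2 are smaller than 0.6.

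On day 0 the spread between replicates was wider than on day 1 for 8 of the 10 members. For *Slc3a2*, *Slc7a5*, *Slc7a1*, *Slc7a7*, *Slc38a1* and *Slc38a2* the library numbered 1 was the lowest of its group in both genotypes. Of the 30 ATF4 response genes described below, 5 were lowest in the same libraries (*Atf4*, *Atf3*, *Cebpb*, *Ddit3* and *Sesn2*), 10 were highest there, among them *Atf5*, *Cebpg* and *Psat1*, and 15 were neither. *Atf3*, an immediate early transcription factor, was at 26.0, 126.6 and 113.1 FPKM in CON and at 28.8, 126.0 and 83.4 FPKM in B-CKO on day 0, and *Ddit3* (CHOP) at 64.6, 96.0 and 122.0 FPKM and at 54.9, 95.8 and 113.2 FPKM. On day 1 *Atf3* was at 18.2 to 20.3 FPKM in all 6 libraries. Its part in the day 0 levels of the transporters was not tested.

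The next comparison is of day 2 with day 1. *Slc3a2*, *Slc7a5*, *Slc7a6* and *Slc1a5* fell in CON, 4 of 10 members, where 44.9% of all 15178 genes passed the test, 20.1% higher and 24.8% lower. In B-CKO 7 of 10 passed, where 45.7% of all genes did, 21.7% higher and 24% lower. The same 4 genes fell together with *Slc7a1* and *Slc38a1*, and *Slc7a7* rose. The median log2 fold change of the members was -0.14 in CON and -0.20 in B-CKO, against -0.0047 and -0.0015 over all genes tested. Over the same days the summed level of 4 plasmablast markers was 72.2 to 90.6 FPKM on day 1 and 140.2 to 249.7 FPKM on day 2 in CON, and 71.9 to 74.4 FPKM and 170.3 to 197.8 FPKM in B-CKO. Dendritic cell markers, mostly *Flt3*, summed to 6.96 to 7.57 FPKM and then 23.8 to 29.2 FPKM in CON, and to 9.57 to 10.05 FPKM and then 31.95 to 32.6 FPKM in B-CKO. In CON, myeloid markers summed to 3.81 to 5.18 FPKM and then to 5.33 to 6.91 FPKM, and in B-CKO their groups overlapped. Within the CON sum *Itgam* rose (2.12 to 2.82 FPKM, then 4.35 to 6.03 FPKM) and *Adgre1* fell (1.40 to 1.99 FPKM, then 0.58 to 1.03 FPKM). B cell markers in B-CKO went from 2089 to 2166 FPKM up to 2439 to 2718 FPKM. T cell markers in B-CKO went from 1.5 to 2.27 FPKM down to 0.73 to 0.98 FPKM. The part of these sums in the changes of the transporters was not tested.

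*Slc7a5* was at 71.6, 61.5 and 62.1 FPKM in CON on day 2 and at 60.5, 61.7 and 58.7 FPKM in B-CKO. All lay below every day 1 library and above every day 0 library. The log2 fold change from day 1 was -0.36 ± 0.064 in CON (adjusted p = 0.00385) and -0.55 ± 0.037 in B-CKO (adjusted p = 5.23e-05). *Slc3a2* was at 67.9, 63.2 and 67.8 FPKM in CON and at 66.4, 64.0 and 66.5 FPKM in B-CKO on day 2, again below every day 1 library. It changed by -0.20 ± 0.041 (adjusted p = 0.00669) and -0.25 ± 0.033 (adjusted p = 0.000866). *Slc3a2* over the sum of the light chains was 0.698 to 0.707 in CON and 0.670 to 0.698 in B-CKO on day 1, and 0.719 to 0.786 and 0.758 to 0.831 on day 2. In a single fit of all 18 libraries, with 1 spread for all days, the *Slc3a2* calls were lost in CON (adjusted p = 0.371) and B-CKO (0.246), and so was the *Slc7a5* call in CON (0.12), while that in B-CKO was kept.

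*Slc1a5* fell further, to 89.9 ± 3.97 FPKM in CON (log2 fold change -0.33 ± 0.041, adjusted p = 0.000775) and 82.0 ± 3.13 FPKM in B-CKO (-0.36 ± 0.055, adjusted p = 0.00197). *Slc7a6* fell to 16.2 ± 0.584 and 16.4 ± 0.943 FPKM (-0.28 and -0.36, adjusted p = 0.00126 and 0.00114). In B-CKO, *Slc7a1* fell to 22.3 ± 1.24 FPKM (-0.20, adjusted p = 0.0132) and *Slc38a1* to 30.1 ± 2.09 FPKM (-0.21, adjusted p = 0.0186). Leaving out 1 B-CKO library ended the *Slc38a1* call in 3 cases (day 1 replicate 2, day 1 replicate 3 and day 2 replicate 1, adjusted p up to 0.0691) and the *Slc7a1* call in 2 (day 1 replicate 3 and day 2 replicate 1, adjusted p up to 0.0515). *Slc7a7* rose in B-CKO from 3.96 ± 0.246 to 5.49 ± 0.295 FPKM (0.39 ± 0.073, adjusted p = 0.00449), and in CON it was at 5.21 ± 0.180 and 6.72 ± 1.40 FPKM (0.30 ± 0.12, adjusted p = 0.0937). Without CON day 2 replicate 3, at 8.34 FPKM, the CON value was 0.15 (adjusted p = 0.102). *Slc38a2* and *Slc1a4* did not pass the test. *Slc1a4* was at 2.75, 1.82 and 2.00 FPKM in CON and at 3.02, 2.29 and 3.21 FPKM in B-CKO on day 2.

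The question of the study's design is whether the loss of *Zbtb24* altered these levels. Between B-CKO and CON, 0 of 10 members passed the test on day 0, on day 1 or on day 2 (limma, adjusted p over all genes tested). Of all genes tested, 0% passed it on day 0, 0.0993% on day 1 and 0.046% on day 2, so that few calls could arise in any set of 10 genes. *Zbtb24* itself did not pass it on any day, with log2 fold changes of -1.78, -0.64 and -0.50 on days 0, 1 and 2 (adjusted p = 0.12, 0.0586 and 0.267), so that a count of 0 in this test does not show that levels were equal. At an unadjusted p under 0.05 there were 0 members on day 0, 2 on day 1 and 1 on day 2, where 2%, 16.3% and 7.71% of all genes were below it. The groups did not overlap for 1, 3 and 2 members, where this held for 3.87%, 20.1% and 11.1% of all genes. Marker sums also differed between the genotypes. B cell markers were at 2398 to 2583 FPKM in CON and 2089 to 2166 FPKM in B-CKO on day 1. Erythroid markers were at 9.68 to 9.94 FPKM in CON and 11.55 to 16.27 FPKM in B-CKO on day 2. Nearly all of that sum was *Hbb-bt* (8.66 to 9.72 FPKM and 11.55 to 16.03 FPKM). *Hba-a1* was at most at 0.42 FPKM in CON and 0.1 FPKM in B-CKO, and *Hbb-bs* at most at 0.67 FPKM and 0 FPKM. Myeloid markers are described with *Slc7a7* below. Dendritic cell markers were at 6.96 to 7.57 FPKM in CON and 9.57 to 10.05 FPKM in B-CKO on day 1, and at 23.8 to 29.2 FPKM and 31.95 to 32.6 FPKM on day 2. Most of the last sums was *Flt3* (23.2 to 28.7 FPKM and 31.4 to 31.9 FPKM on day 2), while *Clec9a* was listed at 0 in every library of days 1 and 2 and *Siglech* was at most at 0.05 FPKM there. The part of these sums in the genotype differences of the transporters was not tested.

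**Figure D4:**
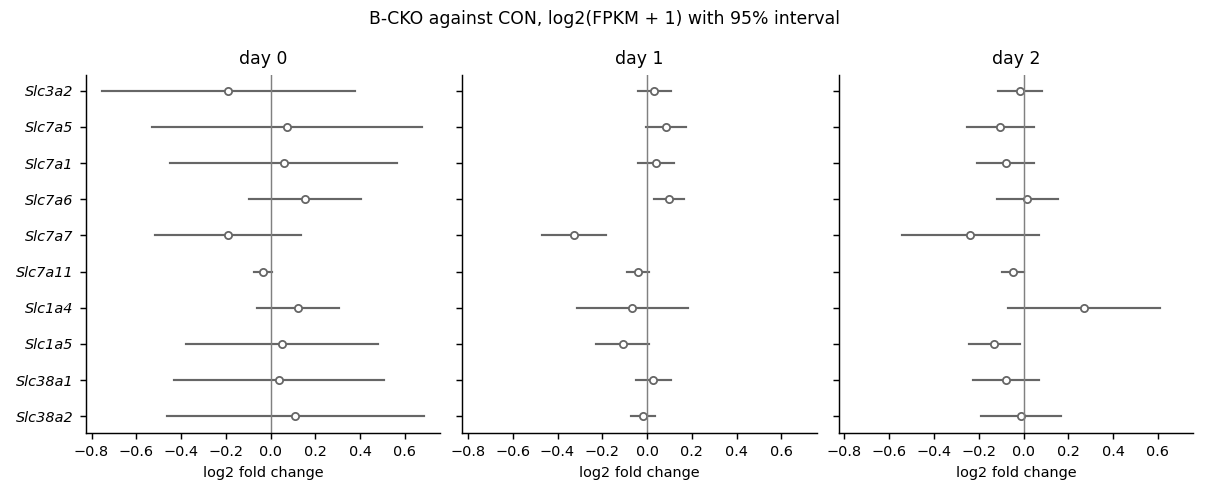
Log2 fold change of FPKM + 1 between B-CKO and CON (horizontal axis, negative values lower in B-CKO) with 95% interval for each transporter on days 0, 1 and 2 (3 libraries per group). None of the 10 genes has an adjusted p under 0.05 on any day, the day 0 intervals are the widest for most genes, and Slc7a7 on day 1 lies farthest to the left, at -0.33.

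For CD98 the difference was small after day 0 and its interval narrow. *Slc3a2* differed by -0.19 on day 0 (95% interval -0.75 to 0.38). That value was -0.38 without CON replicate 1, -0.37 without B-CKO replicate 3, -0.032 without B-CKO replicate 1 and -0.020 without CON replicate 3. *Slc3a2* differed by 0.033 on day 1 (-0.043 to 0.11) and by -0.014 on day 2 (-0.11 to 0.085). *Slc7a5* differed by 0.073 on day 0 (-0.53 to 0.68), by 0.084 on day 1 (-0.0054 to 0.17) and by -0.10 on day 2 (-0.25 to 0.046). Leaving out 1 library gave -0.142 to -0.0338 for *Slc7a5* on day 2 and 0.00938 to 0.0565 for *Slc3a2* on day 1. The libraries of the genotypes overlapped for both genes on every day. The numbers pair the libraries on day 0, and with the number as a block the intervals there were narrower. *Slc3a2* was lower in B-CKO in 3 of 3 pairs, by a log2 fold change of -0.19 (95% interval -0.31 to -0.063), with an unadjusted p of 0.0131 and an adjusted p of 0.812, so that it failed the correction over all genes. For *Slc7a5*, higher in 2 of 3 pairs, the paired interval was -0.21 to 0.35. Of the 10 members, 6 went the same way in 3 of 3 pairs on day 0, where 21.6% of all genes tested did. The count was made after the values were seen. Besides *Slc3a2* these were *Slc7a7* and *Slc7a11*, lower in B-CKO, and *Slc7a6*, *Slc1a4* and *Slc38a2*, higher, with adjusted p of 0.843 to 0.904 in the paired limma fit.

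*Slc7a7*, the y+LAT1 light chain that exports cationic amino acids, came closest to a call. It was at 5.20, 5.40 and 5.04 FPKM in CON and at 4.19, 3.70 and 3.98 FPKM in B-CKO on day 1. All B-CKO libraries were lower, by a ratio of means of 0.759. The log2 fold change was -0.33 ± 0.060 (SE), with an unadjusted p of 0.00111 and an adjusted p of 0.0928. With only genes of at least 1 FPKM it was called (adjusted p = 0.0196), and 388 genes were called there against 15 in all genes. Adding the replicate block to that filter gave an adjusted p of 0.026. Over all alternatives adjusted p ran from 0.0196 to 0.753. It was at 5.05, 6.45 and 5.48 FPKM against 4.39, 4.94 and 5.15 FPKM on day 0 and at 5.95, 5.88 and 8.34 FPKM against 5.20, 5.47 and 5.79 FPKM on day 2. The B-CKO libraries did not overlap with CON on day 2 and did on day 0. The day 2 log2 fold change was -0.24 (adjusted p = 0.748), and -0.093 without CON replicate 3. Macrophages also express *Slc7a7*. The summed level of all 11 myeloid markers was 3.81 to 5.18 FPKM in CON and 3.17 to 3.79 FPKM in B-CKO on day 1, with 3 and 5 of the markers at 0 in all libraries of the group. Most of that sum came from *Itgam*, at 2.12 to 2.82 FPKM in CON and 1.80 to 2.25 FPKM in B-CKO, and the macrophage marker *Adgre1*, at 1.40 to 1.99 FPKM and 0.97 to 1.60 FPKM. On day 2 the myeloid sums were 5.33 to 6.91 FPKM in CON and 3.52 to 4.93 FPKM in B-CKO, without overlap. *Itgam* was then at 4.48, 4.35 and 6.03 FPKM in CON and at 2.99, 4.14 and 3.87 FPKM in B-CKO. Its highest CON library, replicate 3, was also the highest for *Slc7a7* and for the plasmablast markers *Prdm1*, *Xbp1*, *Jchain* and *Sdc1*. *Adgre1* was lowest in that CON library, at 0.71, 1.03 and 0.58 FPKM in CON and 0.43, 0.55 and 0.65 FPKM in B-CKO. The part of myeloid cells in the *Slc7a7* difference was not tested, and in such bulk samples fewer cells of a type cannot be told apart from less RNA per cell.

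The other members with groups that did not overlap differed little. *Slc7a6* was at 19.9, 19.8 and 20.2 FPKM in CON and at 21.8, 21.4 and 21.0 FPKM in B-CKO on day 1, a log2 fold change of 0.098 ± 0.028 with an adjusted p of 0.171. *Slc38a2* was lower in B-CKO on day 1 by 0.018 on the log2 scale, with an adjusted p of 0.739. *Slc1a5* was at 85.7, 93.5 and 90.5 FPKM in CON and at 82.5, 84.9 and 78.7 FPKM in B-CKO on day 2 (-0.13 ± 0.048, adjusted p = 0.562). *Slc7a11* was lower in B-CKO on day 0 at levels of at most 0.03 FPKM. *Slc1a4* had the largest estimate on day 2, 0.27 ± 0.14, with overlapping groups and an adjusted p of 0.747.

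The change with LPS was also compared between the genotypes. For the change from day 0 to day 1, limma called 0 of 10 members and 0 of 16182 genes, with 467 genes (2.89%) and 0 members at an unadjusted p under 0.05. For the change from day 1 to day 2 it called 0 of 10 members and 0 of 15844 genes, with 1158 genes (7.31%) and 1 member at an unadjusted p under 0.05. That member was *Slc7a5*, whose fall was larger in B-CKO by 0.19 on the log2 scale (difference -0.19, 95% interval -0.36 to -0.015, adjusted p = 0.649). The differences for *Slc7a1* and *Slc1a5* from day 0 to day 1 were -0.019 (-0.53 to 0.49) and -0.16 (-0.60 to 0.28).

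Other amino acid transporters gave a wider view of the family. Of 43 genes listed, 36 were in the table and 33 were tested between day 0 and day 1 in CON, where 2 rose and 13 fell (57.4% of all genes passed). *Slc7a3* (CAT3, an arginine and lysine carrier related to *Slc7a1*) rose most. It was at 0.17, 0.06 and 0.40 FPKM in CON on day 0 and at 8.58, 10.1 and 10.04 FPKM on day 1, and its log2 fold change was 3.13 ± 0.14 (adjusted p = 1.1e-05). In B-CKO it was at 0.16, 0.14 and 0.34 FPKM and then at 9.74, 10.4 and 9.35 FPKM. The ratio of *Slc7a3* to *Slc7a1* thus went from 0.010 to 0.382 in CON and from 0.011 to 0.381 in B-CKO. *Slc38a6*, an orphan of the SNAT family, fell by 1.21, and *Slc43a2* (LAT4, a carrier of branched-chain and aromatic amino acids) by 1.13 on the log2 scale. Between the genotypes 0 of these genes were called on any day by limma, with 1, 6 and 2 genes of 35, 32 and 33 tested at an unadjusted p under 0.05 on days 0, 1 and 2 (2%, 16.3% and 7.71% of all genes).

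ATF4 targets and amino acid synthesis genes moved in both directions. Of 30 listed genes, 19 rose and 5 fell in CON from day 0 to day 1, where 26.7% of all genes tested rose and 30.7% fell, with a median log2 fold change of 0.96 against -0.022 over all genes tested. Among the enzymes, *Psat1* and the mitochondrial folate enzymes *Shmt2* and *Mthfd2*, which make serine and use its carbon, rose by 3.40, 2.33 and 3.20 on the log2 scale, and *Asns*, which makes asparagine, by 2.95. Transcription factors of the list moved in both directions. *Ddit3* fell by 3.27 and *Cebpb* by 3.78 on the log2 scale, while *Atf5* rose by 1.07 (adjusted p = 0.00438) and *Cebpg* by 0.72 (adjusted p = 0.0279). These last 2 genes were named after their values were seen. *Atf4* itself, named outside the rule for its role, fell by 1.18, with 364.1 to 429.6 FPKM in the CON libraries on day 0 and 164.5 to 176.0 FPKM on day 1. TGATGNAA was found in windows of 9 of the 25 list genes that had one. Between the genotypes 0 of the 30 genes were called on any day by limma, with 0, 6 and 5 at an unadjusted p under 0.05 on days 0, 1 and 2, where 2%, 16.3% and 7.71% of all genes were below it.

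Across the 18 libraries, *Slc3a2* and *Slc7a5* did not follow the same course (r = -0.541 of log2(FPKM + 1)). The genes most like *Slc7a5* among those with a mean of at least 1 FPKM were *Uck2* (r = 0.996), *Rad23b* and *Mcph1* (both 0.995), and *Eif1a* and *Strap* (both 0.994). Of the members, *Slc1a4* (r = 0.936) and *Slc7a6* (0.888) were nearest to it. The genes most like *Slc3a2* were *Napa* (r = 0.973), *Osgin2* (0.966), *Pdxk* (0.964), *Sf1* (0.962) and *Tfip11* (0.958). Of the members, *Slc38a1* (r = 0.875) and *Slc38a2* (0.816) were nearest to it. These correlations describe 18 libraries that fall on 3 shared days, and most of their spread lies between days.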

How the data were processed

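Splenic B cells of CON and B-CKO mice on days 0, 1 and 2 of LPS gave 18 libraries. The authors aligned reads to mm10 (BWA, Bowtie2, RSEM and DESeq2 are named in the submitters' processing notes, with versions not given in the sources used here) and deposited FPKM values, normalized for transcript length and library size, with 2 decimals for 16545 genes by NCBI gene ID. Of these, 16512 were matched to RefSeq symbols and 33 were not. FPKM are not counts, so the DESeq2 named in the methods could not be used.

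From these values log2(FPKM + 1) was tested with limma 3.58.1 (R 4.3.3, lmFit and eBayes with a trend), within the 6 libraries of each comparison or 12 of each interaction. Genes at 0 FPKM in all of them were left out, and p-values were adjusted by Benjamini-Hochberg over all genes, with 0.05 as the threshold. The fit was first tested on simulated data. By the methods each replicate is 1 mouse. The numbers recur on each day and in both genotypes, and the sources used here do not say whether a number is the same mouse on each day or pairs mice of the genotypes. Same-numbered CON and B-CKO libraries deviated together on day 0 (r = 0.821, 0.435 and 0.751), so the numbers pair them there, and did not on day 1 (0.066, 0.148 and 0.079) or day 2 (-0.048, 0.183 and 0.176).

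The members, the gene lists (43 other amino acid transporters, 30 ATF4 response genes and cell type markers) and the tests were chosen with earlier results of these data known. Named are all members, up to 6 genes per list with the largest CON day 1 change and groups that do not overlap, and the 5 genes most like *Slc3a2* and *Slc7a5*. Alternatives were a pseudocount of 0.1, a filter at a mean of 1 FPKM, rescaling to TPM or by the median ratio, the replicate number as block, 1 fit over all 18 libraries and leaving out each library. The block with the filter, and a fit without both day 0 libraries numbered 1, were added after seeing the data. Sequences are from RefSeq on GRCm38.p6, whose coordinates are those of mm10. Python 3.11.15, pandas 2.3.3, numpy 2.4.6 and matplotlib 3.10.9 were used. Results for 1 gene are not reported here.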

Additional observations from a re-analysis of the deposited data

How the results depend on the processing

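Of 868 alternative values of the 70 member tests, 789 kept their direction and side of the threshold, 19 lost a call, 26 gained one and 34 changed sign. *Slc7a5*, *Slc7a6*, *Slc1a4* and *Slc38a2* kept their calls from day 0 to day 1 in both genotypes in all alternatives run. The sums of FPKM rose between days, so that TPM lowers log2 fold changes from day 0 to day 1 by 0.167 in CON and 0.166 in B-CKO. The cause of the other changes was not tested. Depth was lowest on day 0, and members under 0.1 FPKM cannot be read.

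With genes of at least 1 FPKM, which tests fewer genes, 2, 388 and 29 genes were called between the genotypes on days 0, 1 and 2, against 0, 15 and 7 in all genes, and 1 member (*Slc7a7*, day 1). The replicate block alone gave 5 on day 1 and 3 on day 2, and 0 members. The block alone changed the *Slc3a2* call from day 0 to day 1 in CON (adjusted p = 0.05 as rounded) and no other member call. The block with the filter gave 22, 704 and 116 genes and 1 member on day 1 (*Slc7a7*). A pseudocount of 0.1 gave 46 genes on day 1. A single fit of all 18 libraries gave 23 genes on day 0 and 11 on day 2, and called 7 members from day 0 to day 1 in CON, and 2 in CON and 4 in B-CKO from day 1 to day 2, where *Slc3a2* and *Slc7a5* lost their calls in CON and *Slc3a2*, *Slc7a1* and *Slc38a1* in B-CKO. Leaving out 1 library gave 0 to 1, 5 to 8 and 0 to 6 genes on days 0, 1 and 2 and 0 members. The lowest count on day 2 came without B-CKO day 2 replicate 1, and on day 1 without CON day 1 replicate 1. Interactions gave 0 to 2 genes (day 0 to day 1) and 0 to 3 genes (day 1 to day 2). Without both day 0 libraries numbered 1, 0 genes and 0 members were called between the genotypes on day 0, and 1 gene and 0 members in the interaction.

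Genotype differences near 0 changed sign. On day 2 the log2 fold change was -0.0066 for *Slc7a6* under TPM, and 0.0030 for *Slc38a2* and 0.00049 for *Slc3a2* under the median ratio. Without both day 0 libraries numbered 1 that of *Slc38a1* was -0.0057. Leaving out 1 library gave on day 0 -0.10 to 0.19 for *Slc1a5*, -0.063 to 0.33 for *Slc38a2*, -0.097 to 0.23 for *Slc38a1*, -0.043 to 0.26 for *Slc7a1* and -0.12 to 0.32 for *Slc7a5*. It gave -0.15 to 0.017 for *Slc1a4* on day 1, and -0.089 to 0.039 for *Slc38a2*, -0.048 to 0.0032 for *Slc3a2* and -0.011 to 0.062 for *Slc7a6* on day 2. Over time it gave -0.29 to 0.041 for *Slc38a1* (CON, day 0 to day 1), -0.020 to 0.0091 for *Slc7a11* (CON, day 1 to day 2) and -0.12 to 0.011 for *Slc38a2* (B-CKO, day 1 to day 2).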

Other observations

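Of the 6 other amino acid transporters that the rule on the largest changes names, 3 were not yet described. They fell from day 0 to day 1 in CON, as did 13 of the 33 listed transporters tested and 30.7% of all genes. *Slc38a9*, the arginine sensor of mTORC1 at the lysosomal membrane, was at 6.04, 4.67 and 8.56 FPKM in CON on day 0 and at 2.22, 2.35 and 2.20 FPKM on day 1 (log2 fold change -1.16 ± 0.20, adjusted p = 0.00264). *Slc66a1*, which exports cationic amino acids from lysosomes, was at 13.5, 11.1 and 7.81 FPKM and then at 4.77, 3.94 and 4.71 FPKM (-1.08 ± 0.20, adjusted p = 0.0035). *Slc36a1*, a proton-coupled carrier of small neutral amino acids, was at 7.49, 6.30 and 4.38 FPKM and then at 2.51, 2.60 and 2.81 FPKM (-0.93 ± 0.18, adjusted p = 0.00464). The groups of these 3 genes did not overlap. In B-CKO the log2 fold changes were -1.35, -1.16 and -0.99, with adjusted p of 0.000113, 5.13e-05 and 0.00106.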
